A study of Rattus norvegicus with 24 samples.

Results

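The effect of the low-molecular-weight oat beta-glucan (G2) on blood transcripts was examined in rats that did not receive LPS. The comparison took the 4 arrays of rats on the G2 diet without LPS (C-G2) and the 4 arrays of rats on the control diet without LPS (C-G0), 8 of the 24 arrays in the series, chosen by their titles. All were male Sprague Dawley rats, 8 weeks old, fed for 6 weeks, and by the methods of the study the C groups were injected with saline. C-G0 received the semi-synthetic diet alone and C-G2 the same diet with G2. The G2 values were set beside 4 arrays of rats on the high-molecular-weight preparation without LPS (C-G1). They were also set beside 4 arrays of LPS rats (10 mg/kg) on the control diet (LPS-G0) and 4 on the G2 diet (LPS-G2). These arrays and 4 of LPS rats on the high-molecular-weight preparation (LPS-G1) also entered the main model. The shared spread of all 24 arrays therefore set each limma p, unless another setting is named. Each array was labelled as a biological replicate of whole blood RNA. The arrays lay on 3 slides, with C-G0 holding 2, 1 and 1 arrays and C-G2 holding 1, 1 and 2 arrays on slides 1, 2 and 3.

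Oat beta-glucan is a soluble cereal fibre that is not digested in the small intestine and is fermented by gut bacteria to short-chain fatty acids. Beta-glucans are recognised on myeloid cells by dectin-1 (Clec7a) and by the integrin complement receptor 3, made of Itgam and Itgb2, and dectin-1 signals through the kinase Syk and the adaptor Card9. Whole blood RNA comes from red cell precursors, platelets, granulocytes, monocytes and lymphocytes together. A difference in such samples cannot be told apart into fewer cells of a type and less RNA per cell.

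Every value is the log2 ratio of the rat RNA over a common reference of pooled blood RNA. The labels describe this pool as drawn from all the rats, whereas by the methods it held RNA of some rats of every group that were not hybridised themselves. By the labels the sample dye was Cy3, whereas the methods of the study name Cy5. Over 7074 probes the typical SD among the arrays of one group, as a median of log2 signals, was 0.353 for Cy3 against 0.199 for Cy5. The Cy3 spread was the larger for 95.3% of these probes, so the direction of the labels was used and is the reverse of the methods. The scanner software rated 7786 to 15385 probes as well above background on the C-G0 arrays and 9769 to 14384 on the C-G2 arrays. A probe was tested when all 4 arrays of either group passed this rating, which left 8985 probes. Of these, 7300 passed through both groups, 1509 through C-G2 only and 176 through C-G0 only. The lowest correlation between any pair of the 8 arrays was 0.0485 over all probes.

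The clearest difference was in S100a11, a calcium-binding protein of the S100 family that is found in many cell types, myeloid cells included. Only 2 of 8985 probes (0.0223%) passed an adjusted p under 0.05 with at least a 2-fold difference (limma), and both rose in C-G2. One probe lies in S100a11 on chromosome 2 (186620424 to 186620483, rn4). The other belongs to RGD1563581, a predicted gene on chromosome 17 (5971145 to 5971204, rn4) that the array design describes as S100-A11-like. The sequences of these probes are shown because they carry the result. The longest run of bases that they share is 6, which compares the probes with each other and not with either transcript.
S100a11 probe: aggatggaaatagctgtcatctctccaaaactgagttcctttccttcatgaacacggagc
RGD1563581 probe: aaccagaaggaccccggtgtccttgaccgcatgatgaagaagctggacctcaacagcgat
Whether the second probe also captures S100a11 RNA was not tested, so the pair is not counted as 2 separate genes. The number of probes called ranged from 0 without C-G2 replicate 4 to 154 without C-G0 replicate 4, with 27 without C-G2 replicate 1, 6 without C-G2 replicate 2 and 1 without C-G0 replicate 1 or 3 or C-G2 replicate 3.

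The S100a11 probe had log2 ratios of -0.66, -0.27, -0.52 and -0.30 in C-G0 replicates 1 to 4 and of 0.55, 0.82, 0.49 and 0.88 in C-G2 replicates 1 to 4. All C-G2 arrays lay above all C-G0 arrays. The means were -0.44 ± 0.19 (SD, n = 4) and 0.69 ± 0.19 (SD, n = 4), a 2.18-fold higher level in C-G2 (log2 fold change 1.12, SE 0.17, limma adjusted p = 0.00566, exact permutation p = 0.0286, the smallest that 70 arrangements can give). Any probe whose groups do not overlap gets this permutation p, and 252 of 8985 probes (2.8%) did not overlap. As non-overlap was a condition for the leading genes, the permutation p adds no support. Within slides 1, 2 and 3 the difference was 1.02, 1.34 and 0.98. The adjusted p ranged from 0.0014 to 0.0553 when single arrays of the 2 groups were left out, and it missed the threshold only without C-G2 replicate 4. It was 0.461 when the spread was estimated from the 8 arrays alone and 0.123 from the 12 arrays without LPS.

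The RGD1563581 probe had log2 ratios of -1.06, -0.61, -0.71 and -0.31 in C-G0 and of 0.55, 0.25, 0.44 and 0.80 in C-G2. These groups did not overlap either, and the level was 2.27-fold higher in C-G2 (log2 fold change 1.18, SE 0.20, limma adjusted p = 0.0280). The adjusted p was above the threshold without C-G0 replicate 1, 2 or 3 or C-G2 replicate 3 or 4, and reached 0.248 without C-G2 replicate 4. A second S100a11 probe had values between -0.76 and -0.16 in C-G0 and between 0.32 and 0.73 in C-G2, with a log2 fold change of 0.83 (SE 0.17, limma adjusted p = 0.0756).

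**Figure D1:**
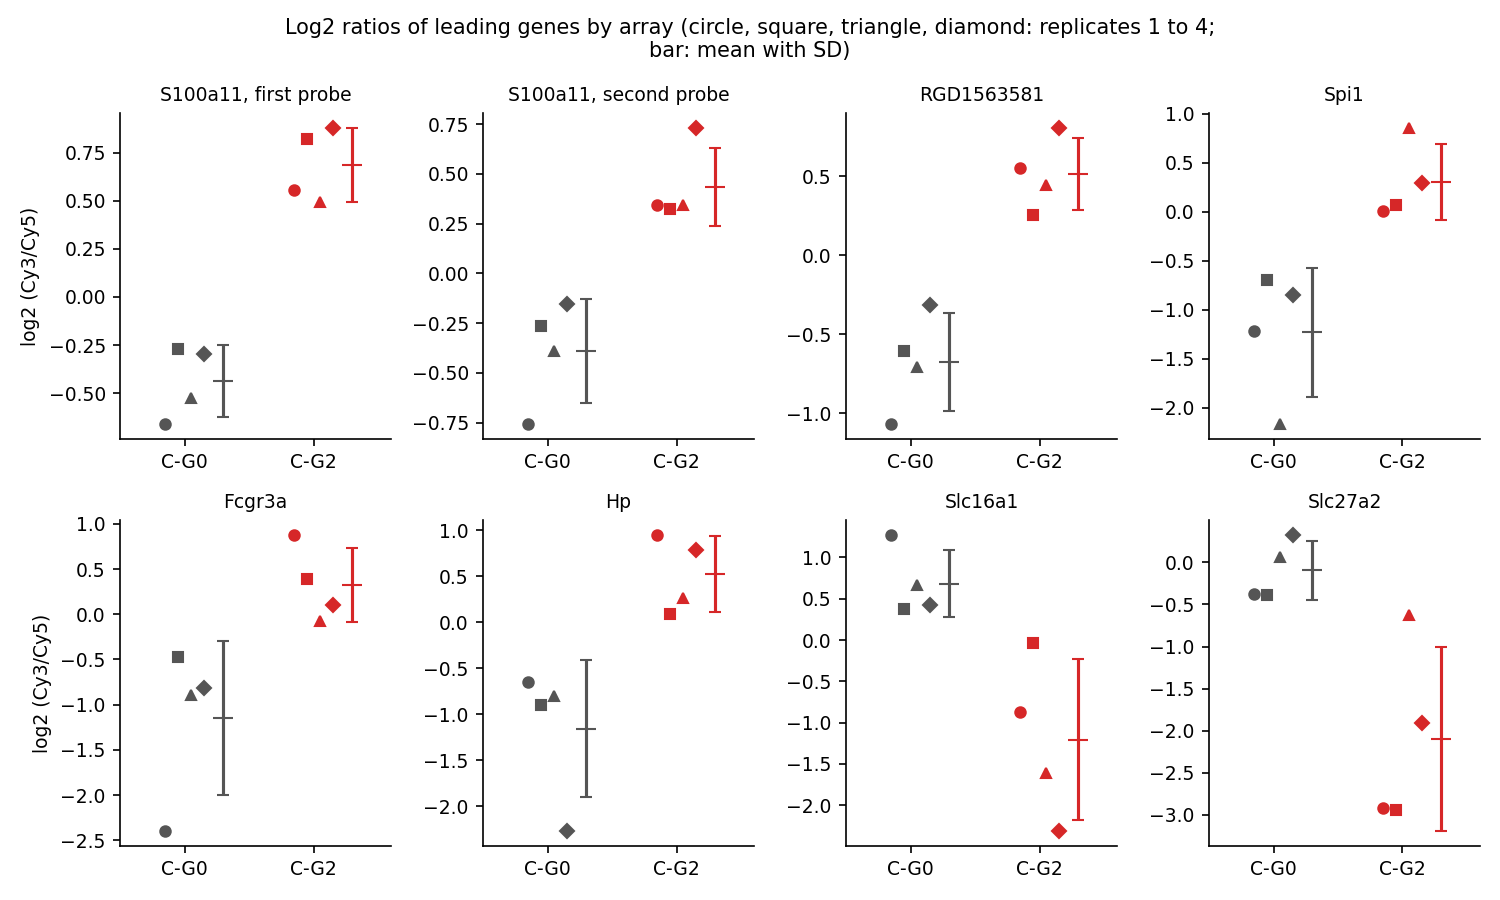
Log2 ratio of rat RNA over the reference for 8 probes (y axis) in C-G0 (grey) and C-G2 (red), with a symbol for each array by replicate and the mean with SD beside it. In each panel the 4 arrays of one group lie clear of the 4 of the other, and the spread is smallest for the S100a11 probes. The lack of overlap was a condition for choosing these probes, except for the second S100a11 probe.

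At an unadjusted p under 0.05 with at least a 2-fold difference, 19 probes (0.211%) were higher and 64 (0.712%) lower in C-G2. Of the 19 higher probes, 16 were tested through C-G2 only and 3 passed the background rating on all 8 arrays. Of the 64 lower probes, 41 passed it on all 8. These 83 probes made up 0.924% of those tested, and the count was 260 without C-G0 replicate 4, 171 without C-G2 replicate 2 and 41 without C-G2 replicate 4. Without the 2-fold requirement, 14.8% of probes were under the unadjusted threshold, 6.2% higher and 8.65% lower. Among the 7300 probes measured in both groups, 5.44% were higher and 9.26% lower. With the spread estimated from the 8 arrays alone, the 1334 probes behind the 14.8% became 730, 214 higher and 516 lower. The C-G0 and C-G2 arrays did not overlap for 252 probes (2.8%), 138 higher (1.54%) and 114 lower (1.27%). The median log2 fold change over all tested probes was 0.02. The genes below were the leading ones by p with a 2-fold difference and no overlap, and none besides the 2 called probes passed the adjusted threshold.

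**Figure D2:**
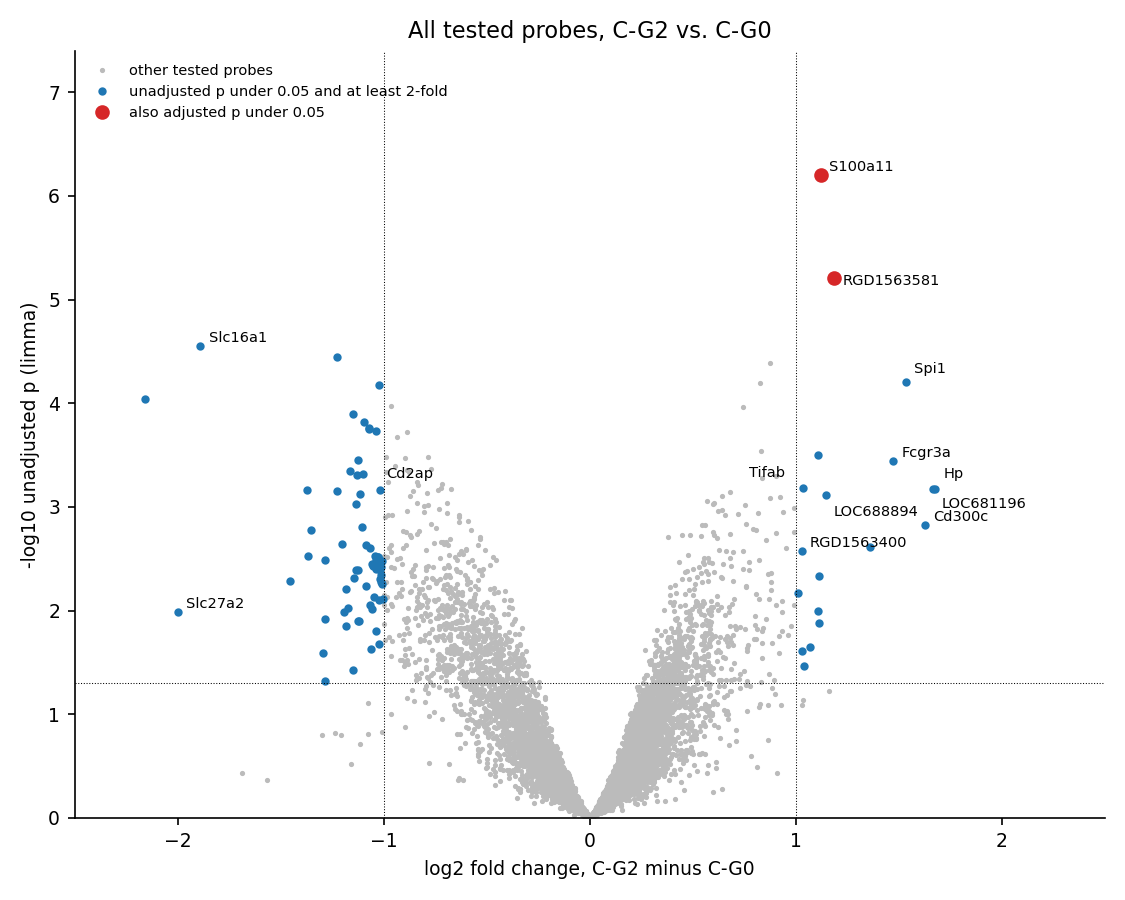
Log2 fold change of C-G2 minus C-G0 (x axis) against -log10 of the unadjusted limma p (y axis) for 8985 probes. The 2 probes that passed the adjusted threshold are red, the others at least 2-fold at an unadjusted p under 0.05 are blue, and names mark 13 of the 17 leading genes. The 2 red probes lie to the right, and the blue probes to the left outnumber those to the right, 64 to 17.

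Of the 8 higher leading genes besides S100a11 and RGD1563581, only Hp passed the background rating on all 8 arrays, and the others were tested through C-G2 alone, the group where they were high. Spi1 encodes PU.1, the transcription factor that directs myeloid and B cell development. Its log2 ratios were -1.22, -0.69, -2.16 and -0.84 in C-G0 and 0.01, 0.07, 0.86 and 0.29 in C-G2. The log2 fold change was 1.54 (SE 0.32, limma adjusted p = 0.0756). Only 2 of 4 C-G0 arrays had a signal well above background for it, so some control values are those of a dim spot.

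Fcgr3a encodes the low-affinity IgG receptor CD16 of monocytes, neutrophils and NK cells. Its log2 ratios were -2.40, -0.47, -0.90 and -0.82 in C-G0 and 0.87, 0.39, -0.07 and 0.11 in C-G2, and C-G0 replicate 1 was the lowest by a wide margin. The log2 fold change was 1.47 (SE 0.35, limma adjusted p = 0.127), and it was 1.06 without C-G0 replicate 1. Its signal was well above background on 3 of 4 C-G0 arrays, and that of Cd300c and of Tifab on 2 of 4. Cd300c, a CD300-family receptor of myeloid cells, had a log2 fold change of 1.63 (SE 0.45, limma adjusted p = 0.152), and its C-G0 replicate 1 was also the lowest at -2.71. Tifab, a relative of the TRAF-interacting protein TIFA, had a log2 fold change of 1.03 (SE 0.26) with C-G0 values between -0.76 and -0.07 and C-G2 values between 0.34 and 0.85.

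Hp encodes haptoglobin, the plasma protein that binds free haemoglobin and is stored in neutrophil granules. Its log2 ratios were -0.65, -0.90, -0.80 and -2.27 in C-G0 and 0.95, 0.09, 0.26 and 0.79 in C-G2. The log2 fold change was 1.68 (SE 0.43, limma adjusted p = 0.127), and C-G0 replicate 4 was the lowest by a wide margin. Over 22 alternatives the log2 fold change of Hp ranged from 0.96 to 1.84. LOC681196 and RGD1563400, both described by the array design as paired immunoglobulin-like type 2 receptor beta-2-like, had log2 fold changes of 1.67 and 1.03, with 1 and 2 of 4 C-G0 arrays well above background. Both lie on chromosome 12, and whether their probes capture each other's RNA was not tested. LOC688894, a DDX41-like predicted gene, had a log2 fold change of 1.15, with 2 of 4 C-G0 arrays well above background.

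The upstream sequence of Fcgr3a is shown because it holds the core of the site that PU.1 binds. The search covered GAGGAAG on both strands in the 250 bases before the RefSeq start. Of the 17 leading genes, 10 had an entry in the RefSeq promoter table (GRCr8), and Spi1 and Hp were not among them. The motif was found in 1 of the 4 higher genes with an entry, in 0 of the 6 lower genes, and in 10.2% of 33469 promoters. The sequence covers chr13:85782386-85782635 on the plus strand of GRCr8, with the motif on the opposite strand in capitals, starting 55 bases before the start of the gene.
Fcgr3a upstream: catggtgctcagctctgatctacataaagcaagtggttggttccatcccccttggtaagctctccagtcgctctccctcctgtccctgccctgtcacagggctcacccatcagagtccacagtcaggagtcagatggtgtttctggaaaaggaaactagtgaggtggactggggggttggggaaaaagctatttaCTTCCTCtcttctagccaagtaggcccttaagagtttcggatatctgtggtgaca
The match is a description of these letters, and no binding was measured.

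Among the lower genes, Slc16a1 had the smallest p. It encodes MCT1, a transporter of lactate, pyruvate and short-chain fatty acids across the plasma membrane. Its log2 ratios were 1.27, 0.38, 0.67 and 0.42 in C-G0 and -0.87, -0.04, -1.61 and -2.31 in C-G2. The log2 fold change was -1.89 (SE 0.36, limma adjusted p = 0.0743), a 3.71-fold lower level. Its signal was well above background on 4 of 4 C-G0 arrays but on 1 of 4 C-G2 arrays. With slide as a block, its limma adjusted p was 0.0478, and it was under 0.05 in 7 of 21 alternatives. Over these alternatives its log2 fold change ranged from -2.28 to -0.50.

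Slc27a2, a fatty acid transport protein with very-long-chain acyl-CoA synthetase activity, had the largest difference among the lower leading genes. Its log2 ratios were -0.38, -0.39, 0.07 and 0.32 in C-G0 and -2.92, -2.94, -0.62 and -1.90 in C-G2 (log2 fold change -2.0, SE 0.72, limma adjusted p = 0.218). Here too 1 of 4 C-G2 arrays had a signal well above background. Over 21 alternatives its log2 fold change ranged from -2.49 to -0.65, and none gave an adjusted p under 0.05. Pnpla8, a phospholipase, and Etnk1, an ethanolamine kinase of phosphatidylethanolamine synthesis, had log2 fold changes of -1.11 (SE 0.29) and -1.14 (SE 0.30). The Pnpla8 probe passed the background rating on all 8 arrays, and the Etnk1 probe did not.

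Cd2ap, an adaptor between the receptor CD2 and the actin cytoskeleton, had a log2 fold change of -1.02 (SE 0.26). Lmnb1, which encodes lamin B1 of the nuclear envelope, had a log2 fold change of -1.04 (SE 0.31). For Tnrc6b, a scaffold of microRNA silencing complexes, the leading probe gave -1.23 (SE 0.31), while 2 other probes of the gene gave -0.41 and -0.09. The probes of Tnrc6b therefore disagreed in size.

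Markers of cytotoxic T and NK cells, which kill infected cells through perforin and granzymes, had positive log2 fold changes for 13 of the 15 tested genes. Over all tested probes, 53.1% were positive. Of 22 genes of the list on the array, 15 were tested, 7 were higher and 1 lower at an unadjusted p under 0.05, against 6.2% higher and 8.65% lower of all tested probes, and none passed the adjusted threshold. The list median was a log2 fold change of 0.55. Among the 11 genes well above background on all 8 arrays, 5 were higher and 1 lower. Nkg7, a granule membrane protein, had log2 ratios of -1.56, -0.14, -0.61 and -0.53 in C-G0 and 0.22, -0.18, 0.03 and 0.12 in C-G2. Gzma, Gzmb, Gzmc, Gzmk and Gzmm, all granzymes, had log2 fold changes of 0.75, 1.04, 0.92, 0.55 and 0.58, and the chemokine Ccl5 had 0.56. Gzmb and Gzmc were well above background on 2 of 4 C-G0 arrays and were tested through C-G2 alone. Klrb1a and Klrd1, with 3 of 4 C-G0 arrays, were also tested through C-G2 alone. Prf1, perforin, had 0.56 without passing the unadjusted threshold. Tbx21, the transcription factor T-bet, had -0.64.

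The mean of the cytotoxic list lay between -0.97 and 0.05 on the C-G0 arrays and between -0.17 and 0.23 on the C-G2 arrays, so the groups overlapped. C-G0 replicate 1 was the lowest array, and without it the list median was 0.26. Within slides 1, 2 and 3 the mean difference was 0.69, 0.26 and 0.31.

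General T cell markers had a median below 0. Of 17 tested genes, 5 were lower and 0 higher by the same threshold, against 8.65% and 6.2% of all tested probes. Their median log2 fold change was -0.13. Il7r, the interleukin-7 receptor of naive and memory T cells, had log2 ratios of 0.25, 0.38, 0.87 and 0.13 in C-G0 and -0.91, -0.45, -0.47 and -0.40 in C-G2. Its log2 fold change was -0.97 (SE 0.30, limma adjusted p = 0.179), and a second Il7r probe gave -0.85. Cd8b and Cd3e, parts of the T cell receptor complex or its coreceptor, had log2 fold changes of -0.59 and -0.73, and Bcl11b, a T cell transcription factor, had -0.51. Cd3d, Cd3g and Cd8a had 0.08, 0.10 and 0.15. The T cell mean lay between -0.37 and 0.27 in C-G0 and between -0.44 and 0.19 in C-G2. Without C-G2 replicate 1 the list median was 0.00, and without C-G0 replicate 1 it was -0.34. Of 9 tested B cell genes, 1 was lower (Ms4a1, the antigen CD20, log2 fold change -0.68) and 0 higher. That count is close to the share of all tested probes.

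Monocyte markers were higher at an unadjusted p under 0.05 for 4 of 10 tested genes and lower for 0, against 6.2% and 8.65% of all tested probes, with a median log2 fold change of 0.51. Among the 7 genes well above background on all 8 arrays, 2 were higher, since Adgre1 and Vcan were dim on 1 and 2 C-G0 arrays. Adgre1, the macrophage antigen F4/80, had 0.70, the transcription factor Klf4 had 0.75, the lysosomal glycoprotein Cd68 had 0.58 and the proteoglycan Vcan had 1.07. Csf1r, Cx3cr1 and Ccr2, which define monocytes and their subsets, had -0.10, -0.26 and -0.16. The list median was 0.16 without C-G0 replicate 1, and its mean ranged from -0.72 to 0.26 in C-G0 and from -0.10 to 0.28 in C-G2. Of 8 tested neutrophil markers, 2 were higher (Hp and the formyl peptide receptor Fpr2, log2 fold change 0.56). The abundant neutrophil alarmins S100a8 and S100a9 had 0.35 and 0.01, and neither passed the unadjusted threshold. The neutrophil median was 0.23 and was -0.04 without C-G2 replicate 2.

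**Figure D3:**
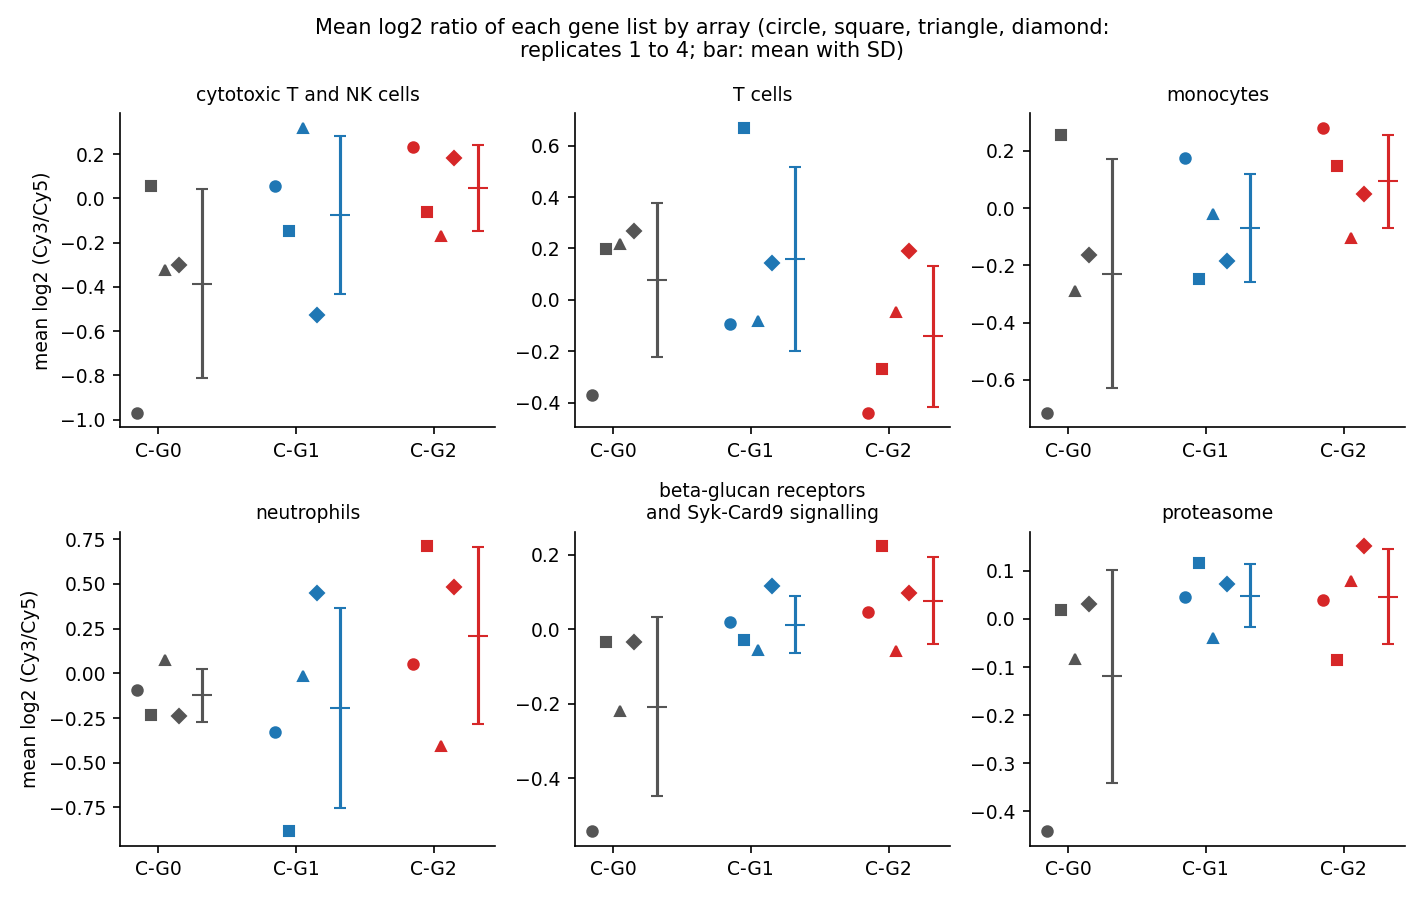
Mean log2 ratio of 6 gene lists (y axis) on each array of C-G0, C-G1 and C-G2, with the mean and SD of each group. The C-G0 and C-G2 arrays overlap for all 6 lists. C-G0 replicate 1 (grey circle) is the lowest array for the cytotoxic (-0.97), monocyte (-0.72), beta-glucan receptor (-0.54) and proteasome (-0.44) lists.

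Red cell and platelet genes give a check of the blood makeup. Of 33 tested erythroid genes, 2 were lower and 0 higher, a share close to or under that of all tested probes (8.65% lower and 6.2% higher). Log2 fold changes were positive for 7 of these 33 genes, against 53.1% of all tested probes. The median log2 fold change was -0.22, and it was -0.03 without C-G2 replicate 4, -0.11 without C-G2 replicate 2 and -0.10 without C-G0 replicate 1. Add2, a protein of the red cell membrane skeleton, had -0.67 (SE 0.17) with another probe at -0.37. The erythroid mean lay between -0.22 and 0.43 in C-G0 and between -0.44 and 0.16 in C-G2. Of 17 platelet genes, Pf4, a chemokine of platelet granules, was higher (0.54) and Tubb1, the platelet beta-tubulin, was lower (-1.12), and the median was 0.01. The part of cell makeup in the results above was not tested.

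The receptors and signalling genes of beta-glucan recognition were next examined. Of 19 tested genes, 5 were higher and 0 lower, against 6.2% and 8.65% of all tested probes, and the median log2 fold change was 0.29. The list mean of C-G0 replicate 1 was the lowest at -0.54, and without that array the median was 0.18. Itgb2, the beta chain of complement receptor 3, had log2 ratios of -1.25, -0.60, -1.13 and -0.59 in C-G0 and -0.33, -0.14, -0.50 and -0.09 in C-G2. Its log2 fold change was 0.63 (SE 0.19, limma adjusted p = 0.172). Fcer1g and Tyrobp, adaptors that carry signals of Fc and other receptors to Syk, had 0.60 and 0.66, and a second Fcer1g probe gave 0.60.

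The receptor dectin-1 itself was not distinguishable between the diets. Clec7a had log2 ratios of -0.03, 0.50, 0.07 and -0.24 in C-G0 and 0.11, 0.49, -0.21 and -0.15 in C-G2, and its log2 fold change was -0.02 with a 95% interval from -0.57 to 0.54. Itgam, the alpha chain of complement receptor 3, gave -0.07 with an interval from -0.52 to 0.38. Syk gave 0.27 (interval -0.13 to 0.67), another Syk probe gave -0.14, and Card9 gave 0.42 (interval -0.03 to 0.87). The signs of Clec7a and Itgam turned in several alternative settings.

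Of 8 tested genes of Toll-like receptor signalling, 3 were higher and 0 lower, against 6.2% and 8.65% of all tested probes. Tlr13, a receptor of bacterial ribosomal RNA, had log2 ratios of -1.36, -0.15, -0.19 and -0.30 in C-G0 and -0.12, 0.50, 0.16 and 0.47 in C-G2, a log2 fold change of 0.76 (SE 0.20, limma adjusted p = 0.133). Tollip, an inhibitor of the pathway, had 0.45 and Tlr2 had 0.39. The list median was 0.31, and without C-G0 replicate 1 it was 0.10. Tlr4 passed the background rating on 0 of the 8 arrays. Cd14, the LPS co-receptor, and Ffar2, a receptor of short-chain fatty acids, did not reach the filter and were not tested.

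**Figure D4:**
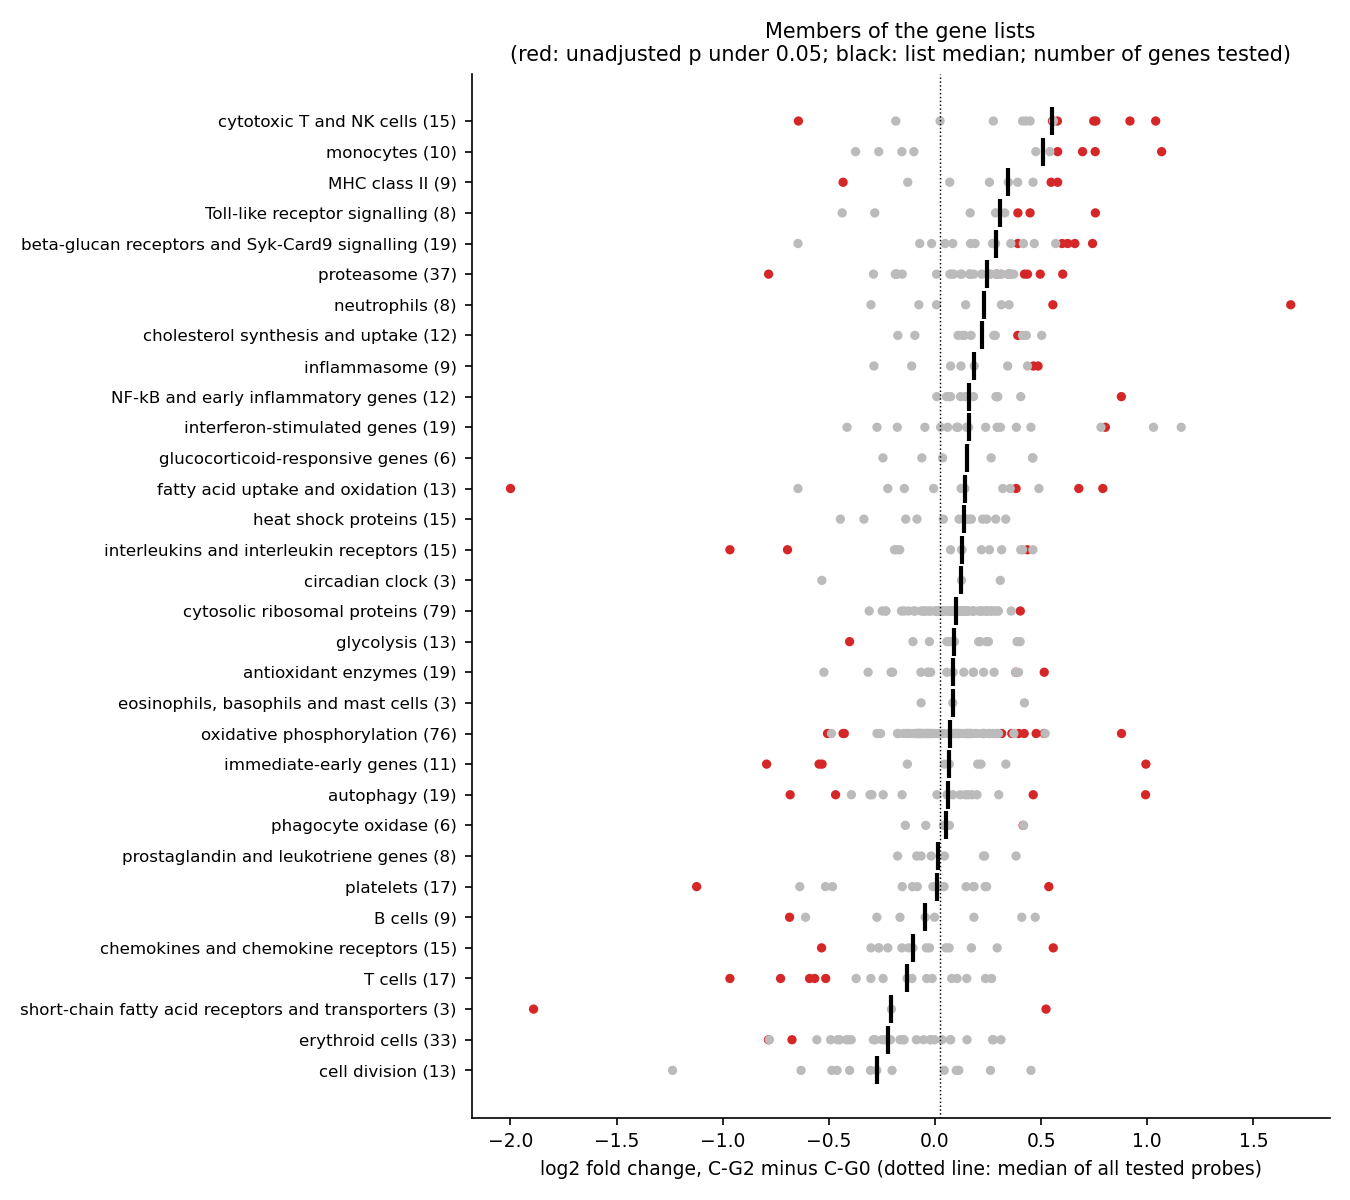
Log2 fold change of C-G2 minus C-G0 (x axis) of each tested gene in the lists with at least 3 tested genes (rows, number tested in parentheses), red where the unadjusted p was under 0.05, with the list median as a black mark. Cytotoxic and monocyte markers have the highest medians, 0.55 and 0.51, and the dotted line marks the median of all tested probes, 0.02.

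Other pathways were examined in the same way, with 6.2% of all tested probes higher and 8.65% lower as the background. In MHC class II, 2 of 9 tested genes were higher and 1 lower, with a median of 0.35. The class II mean lay between -0.95 and 0.09 in C-G0, lowest in replicate 1, and between -0.27 and 0.17 in C-G2. RT1-DMb and RT1-DMa, which load peptides onto class II molecules, had log2 fold changes of 0.58 and 0.55, and Ciita, the transcriptional activator of the class II genes, had -0.43. Of 37 proteasome genes, 6 were higher and 1 lower, with a median of 0.25. The proteasome mean lay between -0.44 and 0.03 in C-G0, lowest in replicate 1, and between -0.08 and 0.15 in C-G2. Within slides 1, 2 and 3 the mean difference was 0.25, -0.00093 and 0.08. Psmb3 and Psmb7, subunits of the core, had 0.60 and 0.50, and Psme4, an activator of the proteasome, had -0.78 (SE 0.21). Of 76 genes of oxidative phosphorylation, 7 were higher and 3 lower, shares near that background, with a median of 0.07, and of 79 cytosolic ribosomal proteins 1 was higher. Of 11 tested immediate-early genes, 1 was higher and 3 lower, with a median of 0.07. Nr4a1, an immediate-early nuclear receptor, had 0.99 (SE 0.26), whereas Fosb and Jund, subunits of the transcription factor AP-1, had -0.79 and -0.53.

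Of 13 tested genes of fatty acid uptake and oxidation, 3 were higher and 1 lower, against 6.2% and 8.65% of all tested probes. The list median was 0.14. Slc27a1, a fatty acid transporter, had 0.79 and Acaa2, a thiolase of mitochondrial beta-oxidation, had 0.68, in contrast to Slc27a2 above. The Acaa2 probe did not pass the background rating on all 8 arrays. Slc16a3, the lactate exporter MCT4, had 0.52, opposite to Slc16a1. Of 19 tested antioxidant enzymes, 2 were higher and 0 lower, with a median of 0.09, and Prdx5 had 0.51. Of 13 cell division genes none passed the unadjusted threshold in either direction and the median was -0.27. The genes the study listed for LPS rats were mostly dim here. Of 19 genes listed for both beta-glucans, 3 were tested and none passed the unadjusted threshold. Of 34 listed as reversed by beta-glucans, 10 were tested and 1 (Usp6nl, -0.56) was lower, near the 8.65% of all tested probes. Of 6 measured by RT-PCR for G2, 2 were tested and the same Usp6nl was lower. The study lists Usp6nl as higher with G2 in LPS rats, opposite to this value in rats without LPS. By the study, RT-PCR in rats not used for its arrays gave the same direction for every gene measured. Its methods name the other dye, and the cause of the opposite sign was not tested. The Usp6nl probe did not pass the background rating on all 8 arrays. These lists were chosen in the study on arrays that include the same C-G0 rats.

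The low- and high-molecular-weight preparations were compared directly in rats without LPS, as 1 pair at the same time and duration. No probe passed the adjusted threshold (0%, limma, smallest adjusted p 0.270), and at an unadjusted p under 0.05 with a 2-fold difference 41 probes (0.456%) differed, 35 (0.39%) higher and 6 (0.0668%) lower in C-G2 than in C-G1. At any fold 16.3% of probes were under the unadjusted threshold, 11.6% higher and 4.72% lower. These 1469 probes became 320 without C-G1 replicate 2 (209 higher and 111 lower) and 502 without C-G2 replicate 1. They became 2561 without C-G2 replicate 2, so the count depended strongly on single arrays. S100a11 was at -0.17 ± 0.20 (SD, n = 4) in C-G1, and the difference of C-G2 minus C-G1 was 0.86 with a 95% interval from 0.51 to 1.20 (limma adjusted p = 0.270). RGD1563581 had 0.83 (0.40 to 1.25) and Spi1 had 0.92 (0.27 to 1.58). For Fcgr3a the difference was 0.02 (-0.71 to 0.75), for Adgre1 0.05 (-0.37 to 0.48), for Nr4a1 0.05 (-0.50 to 0.60) and for Itgb2 0.04 (-0.34 to 0.42). These intervals do not show that both preparations act alike. Slc16a1 was at -0.60 in C-G1, and C-G2 minus C-G1 was -0.61 (-1.36 to 0.15). The comparisons of C-G2 with C-G0 and with C-G1 share the C-G2 arrays. Genes chosen for their difference from C-G0 therefore lean the same way against C-G1. Their intervals are given as a description.

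**Figure D5:**
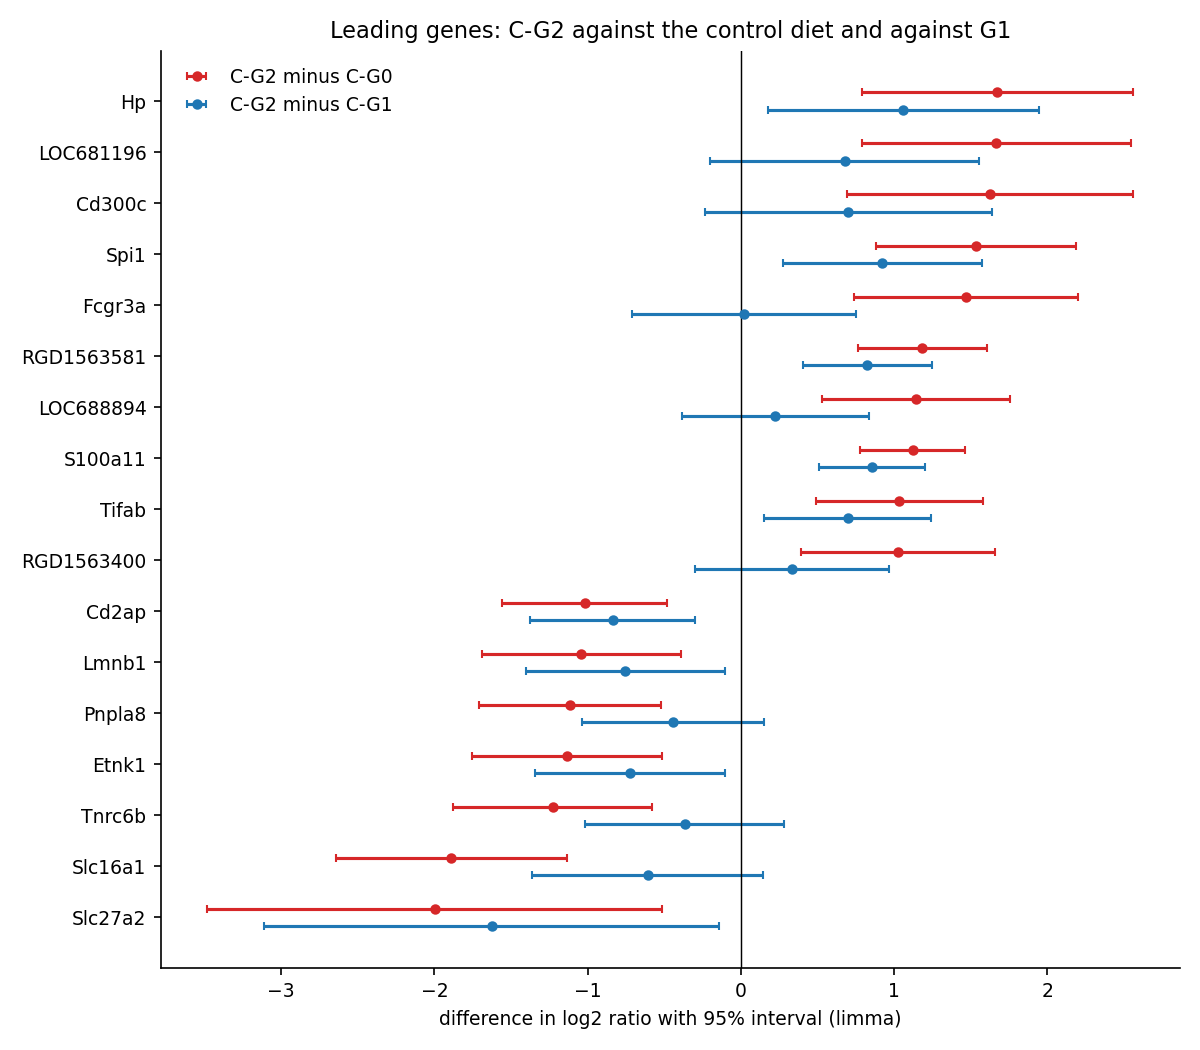
Difference in log2 ratio (x axis) with its 95% interval for the 17 leading genes (rows), C-G2 minus C-G0 in red and C-G2 minus C-G1 in blue. The intervals of S100a11, RGD1563581 and Spi1 lie above 0 for both differences, and that of Fcgr3a against C-G1 is centred on 0.02. The genes were chosen by the red difference, and both differences use the same C-G2 arrays.

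Whether the G2 diet differed in its relation to the control diet with and without LPS was tested as an interaction, (C-G2 minus C-G0) minus (LPS-G2 minus LPS-G0). No probe passed the adjusted threshold (0%, limma, smallest adjusted p 0.580), and 113 probes (1.26%) were at an unadjusted p under 0.05 with a 2-fold difference, 30 (0.334%) positive and 83 (0.924%) negative. At any fold 6.12% were under the unadjusted threshold, 2.64% positive and 3.48% negative. S100a11, Fcgr3a and Slc16a1 were chosen for their C-G2 minus C-G0 difference, which is part of the interaction, so their interaction values are given as a description. S100a11 was at -0.09 ± 0.28 in LPS-G0 and 0.22 ± 0.25 in LPS-G2 (SD, n = 4 each), a difference of 0.30, and the interaction was 0.82 with a 95% interval from 0.33 to 1.30. Fcgr3a was at -0.05 in LPS-G0 and -0.52 in LPS-G2, and its interaction was 1.94 (0.91 to 2.97). Slc16a1 was at -0.61 in LPS-G0 and -0.41 in LPS-G2, and its interaction was -2.09 (-3.16 to -1.03). The cytotoxic list had a mean of 0.32 in LPS-G0 and -0.01 in LPS-G2, against -0.39 in C-G0 and 0.05 in C-G2. The labels of 2 LPS-G0 arrays conflict, since their titles name LPS and another field does not, so a direction drawn from LPS-G0 rests on the titles.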

How the data were processed

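Whole blood RNA was measured on 24 two-color arrays with a common reference. Per the file headers, Agilent Feature Extraction 10.10.1.1 (10.7.3.1 in the submitters' processing notes) removed the local background and normalised the 2 dyes against each other (Lowess). The deposited log10 ratios are Cy5 over Cy3; they were turned to Cy3 over Cy5 and set on the log2 scale. The authors' deposited intensities of each channel were used for the filter and the alternatives. Control and outlier spots were left out, and spots of one probe were averaged (30367 probes). Names came from the array files, and 18643 of 23402 RefSeq accessions were matched to current symbols.

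One limma model (version 3.58.1, R 4.3.3) covered the 6 groups of 24 arrays, and p was adjusted by Benjamini-Hochberg over 8985 probes. Single genes were also tested by a two-sided exact permutation test (70 arrangements). The fit was tested on simulated data. Named genes were the 10 per direction with the smallest p, a 2-fold difference, no overlap and a signal above background on at least 1 array of both groups (11 higher and 7 lower met it, and 10 and 7 were kept), up to 2 per direction of each of 36 lists, and 11 genes of beta-glucan recognition and lipid handling, of which a few are not reported here. For lists, the brightest tested probe of a gene was used. Members and lists were chosen with earlier results of these data known. Alternatives covered the arrays fitted, slide and replicate blocks, array weights, a variance trend, normexp with loess, Cy3 alone, median centring, filters, the analysis of variance that the methods name (Tukey's HSD), and leaving out arrays. The number of arrays limits the precision.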

Additional observations from a re-analysis of the deposited data

Results flagged for a closer look

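In each of the 2 groups, the named genes and the list means were screened for an array far from the other 3 (Dixon's ratio, 218 groups of 4, of which chance flags about 1 in 20). The screen marked 18, and 9 of them were C-G0 replicate 1. That array was at -2.71 for Cd300c, -1.36 for Tlr13, -1.11 for Casp1 and -1.06 for Il6r, all lower than the other C-G0 arrays. Its list means were -0.37 for T cells, -0.56 for Toll-like receptor signalling, -0.95 for MHC class II and -0.26 for oxidative phosphorylation, all low, and 0.18 for the circadian clock, which was high.

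C-G0 replicate 4 was low for Hp at -2.27 and for Cox6b2 at -0.19. C-G0 replicate 3 was low for Pf4 at -1.20, and C-G0 replicate 2 was high for the mean of eosinophil, basophil and mast cell genes at 0.20. In C-G2, replicate 1 was low for Il7r at -0.91 and high for the glycolysis mean at 0.070, replicate 2 was low for Psmb3 at -0.16 and Psmb7 at -0.29, and replicate 4 was low for Adgre1 at 0.10.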

How the results depend on the processing

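The 2 probes called in C-G2 vs. C-G0 became 0 with the 8 arrays or the 12 arrays without LPS alone, with normexp and loess, with Cy3 alone and with Tukey's HSD, 1 without a filter, 4 when the LPS-G0 arrays whose labels conflict were dropped, 6 with slide as a block and 70 with array weights. Leaving out single arrays gave 0 to 154 called probes. The count was 154 without C-G0 replicate 4, 27 without C-G2 replicate 1, 6 without C-G2 replicate 2, 1 without C-G0 replicate 1 or 3 or C-G2 replicate 3, and 0 without C-G2 replicate 4. The 83 probes at an unadjusted p and 2-fold became 180 with array weights, 12 with normexp and loess, 142 with Cy3 alone, 44 when restricted to probes well above background on all 8 arrays (3 higher and 41 lower), 505 without a filter and 30 with Tukey's HSD, and ranged from 41 (without C-G2 replicate 4) to 260 (without C-G0 replicate 4), with 171 without C-G2 replicate 2. At any fold, 1334 probes became 730 with the 8 arrays, 876 with the 12, 881 with Cy3 alone, 2354 without a filter and 201 with Tukey's HSD, and ranged from 880 (without C-G2 replicate 4) to 1863. The adjusted p of S100a11 stayed under 0.05 in 17 of 22 alternatives and that of RGD1563581 in 12, although with normexp and loess both differences were under 2-fold (0.88 and 0.97), and the log2 fold changes stayed between 0.88 and 1.44 and between 0.97 and 1.54. The causes were not tested.

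For C-G2 vs. C-G1, the 41 probes at an unadjusted p and 2-fold became 21 with slide as a block, 25 with array weights, 5 with normexp and loess, 115 with Cy3 alone, 25 with the filter on 8 arrays, 89 with the filter on any of 6 groups, 540 without a filter and 7 with Tukey's HSD, and ranged from 15 (without C-G1 replicate 2) to 160 (without C-G2 replicate 2). The interaction had 1 called probe without C-G0 replicate 4 and 0 without any other array, and its 113 probes at an unadjusted p became 264 with array weights, 57 with normexp and loess and 621 without a filter, and ranged from 82 to 215 (without C-G2 replicate 2).

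The replicate numbers were not taken to pair the arrays, since 1 of 4 correlations was under 0.1: same-numbered C-G0 and C-G2 arrays had correlations of deviations of 0.55, 0.39, -0.08 and 0.47, and 3 of 4 C-G2 arrays correlated best with their own number. With the replicate block, 25 probes were called in C-G2 vs. C-G0 (6 higher and 19 lower), 83 were at an unadjusted p and 2-fold, and no probe was called in the other comparisons (43 and 119 at an unadjusted p and 2-fold).

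The monocyte median was 0.13 with array weights. Over single arrays left out, list medians ranged from 0.26 to 0.65 (cytotoxic), -0.34 to 0.00 (T cells), 0.16 to 0.66 (monocytes), -0.04 to 0.45 (neutrophils), -0.32 to -0.03 (erythroid), -0.10 to 0.12 (platelets), 0.18 to 0.42 (beta-glucan receptors) and 0.10 to 0.43 (Toll-like receptors). Itgam became 0.042 with array weights, 0.11 without C-G0 replicate 1 and 0.02 without C-G0 replicate 2 (-0.22 to 0.11 over single arrays left out). Clec7a became 0.029 with slide as a block, 0.050 with Cy3 alone, 0.13 without C-G0 replicate 2, 0.07 without C-G2 replicate 3 and 0.06 without C-G2 replicate 4 (-0.16 to 0.13).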
